A study of Mus musculus with 20 samples.

Results

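C12 and ih_STC_BM are mouse cell lines that arose beside SU3, a human glioma stem cell line, and the report sets the 3 C12 libraries against the 3 ih_STC_BM libraries. These 6 libraries, of 20 in the series, were chosen by their cell type label, and the comparison ran over all 15779 tested genes of 43432 in the gene count table. C12 is labelled as macrophages that became malignant in vitro, in a co-culture of SU3 with cells washed from the peritoneum. ih_STC_BM is labelled as mesenchymal stem cells recultured from an SU3 transplant tumour, and the host's marrow was damaged and then reconstituted. Both lines are labelled with the nude mouse as strain and were kept in DMEM with 10% fetal bovine serum at 37 °C and 5% CO2. The treatment notes speak of monoclonal culture, so each line may be 1 clone, and nothing in the labels says that the 3 libraries of a line are separate cultures. The p-values below therefore set a difference against the spread between libraries of a group, estimated over all 20 libraries, and this spread may be technical. The lines also differ in where they were made, in culture or in a tumour, and cell of origin, route and clone cannot be told apart. Xist and Y-linked genes, given further on, differed between the lines as well. A difference in the sex of the source animals cannot be told apart from the others either.

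Macrophages are phagocytes of the myeloid lineage. They carry the pan-leukocyte phosphatase Ptprc (CD45) and the growth factor receptor Csf1r, and they clear debris and present antigen. Mesenchymal stem cells are fibroblast-like cells of bone marrow and connective tissue that lay down collagen, carry Pdgfra and Pdgfrb, and in the marrow hold blood stem cells in place with the chemokine Cxcl12. In a glioma both kinds of host cell surround the tumour cells, and macrophages are drawn in by chemokines such as Ccl2.

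Against ih_STC_BM, C12 had higher levels of a set of drug and aldehyde metabolising enzymes and of the chemokine genes Ccl2, Ccl7, Ccl8 and Ccl11. Serpina3 cluster genes and the desmosomal genes Dsp and Pkp1 were higher as well. C12 had lower levels of Dlk1, Cxcl12, Il1rl1, Crabp2, Mmp14 and many genes of chromosomes 3 and 4. Levels are CPM, counts scaled to an equal library size after TMM normalisation. They are not divided by gene length and so are compared between lines, not between genes. A gene was called at an adjusted p under 0.05 in edgeR's quasi-likelihood test. This rule called 1188 genes, 7.53% of those tested, with 704 higher in C12 (4.46%) and 484 lower (3.07%). The counts of called genes in gene lists, given further on, are to be read beside these shares. Among the called genes, 677 of the higher and 398 of the lower differed by more than 1 on the log2 scale, against a median log2 fold change of -0.05 over all tested genes. No library of one line overlapped the other in 1115 of the 1188 called genes. Over all tested genes the libraries did not overlap in 1531 genes higher in C12 (9.7%) and 1023 lower (6.48%). RNA from fewer cells of a kind and less RNA per cell cannot be told apart in such bulk libraries.

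**Figure D1:**
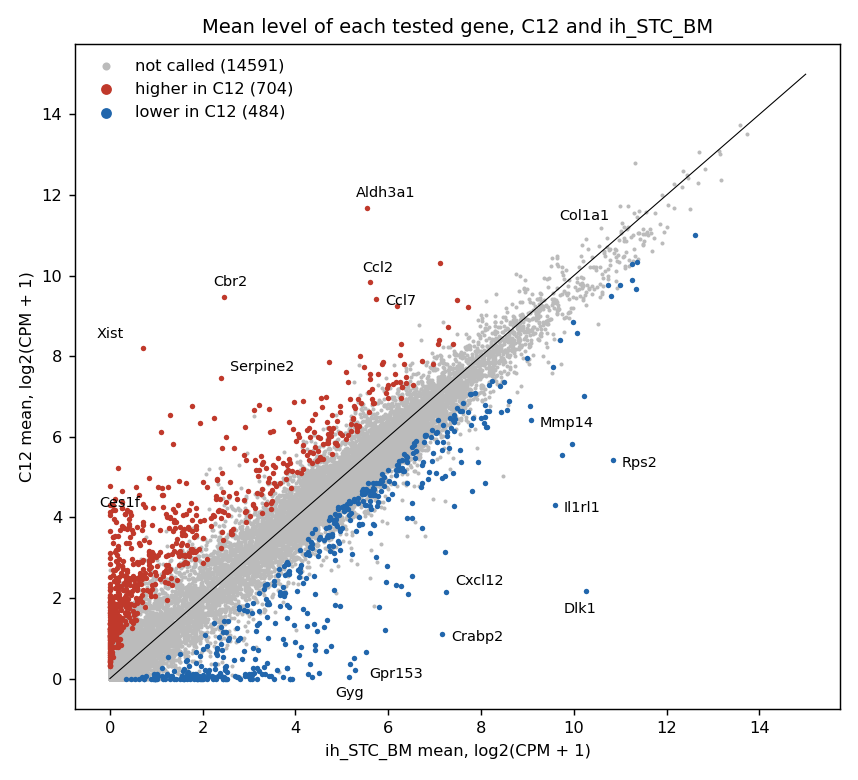
Each point is a tested gene, with its mean over 3 C12 libraries on the y axis and over 3 ih_STC_BM libraries on the x axis, both as log2(CPM + 1). Red points are the 704 genes called higher in C12, blue points the 484 called lower, grey points the rest, and the line marks equal levels.

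The calls rest on a spread taken from all 20 libraries. When the 6 libraries were fitted alone, 207 genes were called, 137 higher in C12 and 70 lower, of 12302 tested, and 206 of them were among the 1188. For a called gene that did not pass in that smaller fit, the 6-library adjusted p is given beside it. C1qa, Ocln, Epcam, Wt1, Sox2, Mgp, Postn, Dkk2, Ifi44, Ifitm6 and Uty, named further on, did not pass the filter on low counts there and have no such value. Leaving out the first C12 library left 675 calls, and 575 of the 1188 calls passed whichever of the 6 libraries was left out. Leaving out the first or the second C12 library left 200 or 246 genes lower in C12, against 484. The share of reads in introns, a sign of RNA quality, was 2.52%, 1.02% and 5.23% in the C12 libraries, and 2.34%, 8.52% and 1.79% in the ih_STC_BM libraries, so the lines overlapped in it. With this share as a covariate, 1180 of the 1188 genes were called in the same direction, among 2789 in all.

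The libraries of a line differed nearly as much as the lines. Profile distance, taken as the root mean square of the log2 CPM differences over tested genes, ranged over 0.741 to 1.32 between C12 libraries and over 1.04 to 1.57 between ih_STC_BM libraries. Between a C12 and an ih_STC_BM library it ranged over 1.19 to 1.77. The means were 0.994 within C12, 1.30 within ih_STC_BM and 1.37 between the lines. Total counts were 9063824 to 10767535 in C12 and 8794777 to 9455417 in ih_STC_BM.

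The defining markers of the labelled cell types were not called between the lines. Ptprc had 0.660, 0.439 and 1.18 CPM in C12 and 0.247, 0.608 and 0.147 CPM in ih_STC_BM. Csf1r had 5.06, 4.06 and 4.47 CPM in C12 and 6.29, 1.32 and 0.587 CPM in ih_STC_BM. Both genes were low in both lines, their libraries overlapped, and neither was called (adjusted p = 0.181 for Ptprc and 0.577 for Csf1r, edgeR). The MDSC libraries of the same series averaged 1556 CPM for Ptprc and the MSC libraries 213.7 CPM, so C12, labelled macrophage, was near 0 for its defining leukocyte marker. Itgam, an integrin of myeloid cells, had 0.660, 0.439 and 0.314 CPM in C12 and 1.36, 1.62 and 0.293 CPM in ih_STC_BM, and Adgre1, the macrophage antigen F4/80, was too low to be tested. Cd68, a lysosomal protein abundant in macrophages, had 49.5, 66.1 and 22.6 CPM in C12 and 19.2, 15.9 and 9.97 CPM in ih_STC_BM. Each C12 library was above each ih_STC_BM library for Cd68, yet it was not called (log2 fold change 1.61, SE 0.60, adjusted p = 0.120, edgeR).

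Stromal genes were abundant in both lines. Col1a1, a chain of type I collagen, had 2256, 2582 and 1777 CPM in C12 and 3719, 2018 and 496.2 CPM in ih_STC_BM, where the third library stood lowest (log2 fold change 0.09, SE 0.46, adjusted p = 0.973, edgeR). Pdgfrb had 116.4, 135.6 and 165.2 CPM in C12 and 246.6, 100.8 and 49.0 CPM in ih_STC_BM. Pdgfra, Col1a2, Eng, Ly6a and Nt5e also overlapped between the lines. Thy1, a surface protein used to define cultured mesenchymal stem cells, had 1.87, 1.86 and 1.80 CPM in C12 and 0.247, 0.304 and 0.147 CPM in ih_STC_BM, low in both lines. Every C12 library was above every ih_STC_BM library, yet Thy1 was just short of a call (adjusted p = 0.0523; 6-library adjusted p = 0.0734, edgeR). It did pass in DESeq2 (adjusted p = 0.0156), in limma-voom (adjusted p = 0.0274) and in edgeR with intron share as a covariate (adjusted p = 0.0273). Of a panel of 17 identity and growth genes, 16 were tested and 0 were called by edgeR, while 4 had an unadjusted p under 0.05 and 1, Thy1, was called by DESeq2. That panel also held Mki67, Trp53, Myc and Cdkn2a. Cdkn2a, which encodes the tumour suppressors p16 and p19, had 0 CPM in all 3 C12 libraries and 0, 0.101 and 0 CPM in ih_STC_BM.

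Some leukocyte genes did differ. In the pan-leukocyte list 5 of 16 tested genes were called higher in C12 and 0 lower, with a median log2 fold change of 0.56 over the list. Lcp1, an actin bundling protein of leukocytes, had 21.9, 20.1 and 14.7 CPM in C12 and 2.34, 2.33 and 0.587 CPM in ih_STC_BM. Vav1, an exchange factor of blood cell signalling, had 5.61, 8.77 and 4.08 CPM in C12 and 0.123, 0.101 and 0.147 CPM in ih_STC_BM. In both genes every C12 library stood above every ih_STC_BM library (Lcp1 log2 fold change 3.39, SE 0.51, adjusted p = 0.000484; Vav1 48.8-fold, 95% counting interval 16.4 to 238.9, adjusted p = 1.60e-05, edgeR). Their levels were far under those of the leukocyte-rich groups of the series, where Lcp1 averaged 1644 CPM in MDSC and 1672 CPM in MSC. Rac2, Arhgap30 and Fcer1g were also called higher. Rac2 did not pass in the 6-library fit (adjusted p = 0.267), and its log2 fold change was -0.13 without the 4 libraries of low intron share. Arhgap30 was not called without C12 1, C12 3 or ih_STC_BM 1, with an adjusted p of up to 0.148, and its 6-library adjusted p was 0.457. For Fcer1g the 6-library adjusted p was 0.0730. The summed level of the list was 109.7 to 141.9 CPM in C12 and 56.7 to 75.7 CPM in ih_STC_BM.

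In the macrophage and monocyte list, 1 of 20 tested genes was called higher, 1 lower, and the median log2 fold change was -0.99. These counts of calls are near the shares over all genes, 4.46% higher and 3.07% lower. At an unadjusted p under 0.05 in edgeR, however, there were 9 of the 20, against 3253 of all 15779 tested genes. DESeq2 called 3 of the list, 1 higher and 2 lower, against 1746 of all tested genes. Trem2, a lipid receptor of macrophages and microglia, had 47.6, 57.9 and 21.4 CPM in C12 and 13.9, 3.65 and 5.57 CPM in ih_STC_BM. It did not overlap between the lines (log2 fold change 2.45, SE 0.61, adjusted p = 0.0195, edgeR). The Trem2 call was lost without C12 1, C12 2, ih_STC_BM 2 or ih_STC_BM 3, with an adjusted p of up to 0.0626, and its 6-library adjusted p was 0.130. C1qa, a subunit of complement C1q, was called lower with 0 CPM in all C12 libraries and 0.740, 0.608 and 0.293 CPM in ih_STC_BM. The list's summed level was 79.6 to 168.5 CPM in C12 and 63.6 to 98.0 CPM in ih_STC_BM, overlapping. The granulocyte, erythroid and endothelial lists had 0 called genes in edgeR, of 12, 8 and 7 tested, with 0, 1 and 3 at an unadjusted p under 0.05 and 0, 1 and 1 called by DESeq2.

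In the mesenchymal stem cell list, 1 of 16 tested genes was called higher and 2 lower, with a median log2 fold change of -0.17. Over all genes 4.46% were higher and 3.07% lower. Ngfr, the low-affinity nerve growth factor receptor that also marks marrow mesenchymal stem cells, had 67.9, 106.3 and 32.1 CPM in C12 and 0, 0.101 and 3.37 CPM in ih_STC_BM. Cxcl12 had 3.74, 1.54 and 4.94 CPM in C12 and 233.2, 208.5 and 10.7 CPM in ih_STC_BM. The lines did not overlap for either gene, though the third ih_STC_BM library was close to C12 for Cxcl12. Ngfr rose by 5.98 (SE 1.0004, adjusted p = 0.00117) and Cxcl12 fell by 5.45 on the log2 scale (SE 1.04, adjusted p = 0.00335, edgeR). Their 6-library adjusted p was 0.0857 for Ngfr and 0.0583 for Cxcl12. Vcam1, an adhesion molecule for leukocytes, had 35.3, 27.2 and 21.0 CPM in C12 and 125.0, 154.1 and 38.0 CPM in ih_STC_BM. Vcam1 was called lower (adjusted p = 0.0191), but not without C12 2, C12 3, ih_STC_BM 1 or ih_STC_BM 2, with an adjusted p of up to 0.0784, and its 6-library adjusted p was 0.185.

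**Figure D2:**
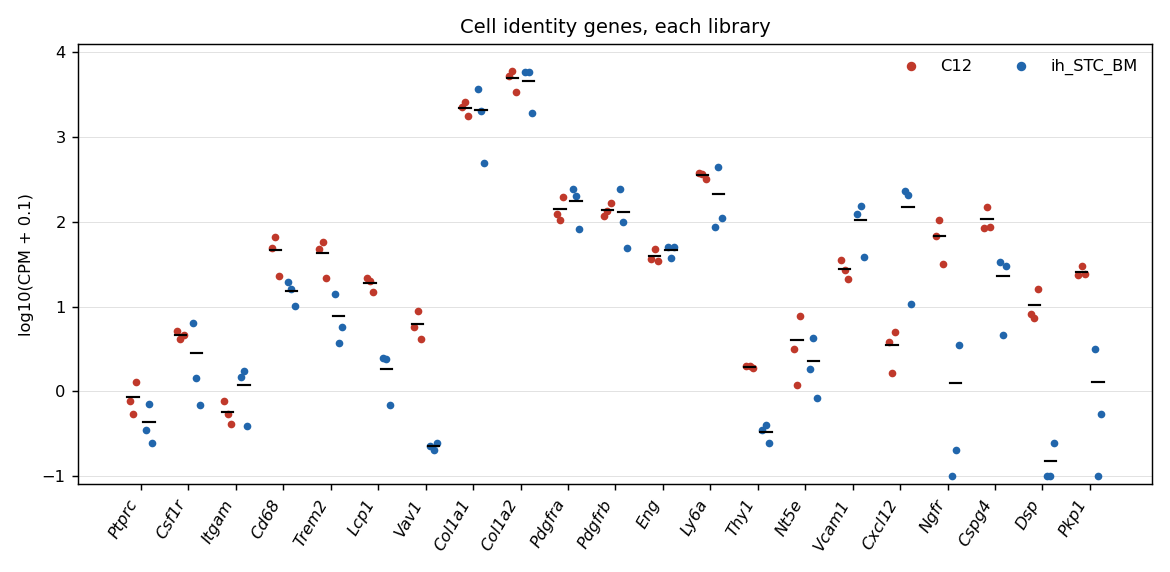
Each point is a library and each bar a group mean, as log10(CPM + 0.1), with C12 in red on the left and ih_STC_BM in blue on the right of each gene. Ptprc, Csf1r and Itgam are low and Col1a1 and Col1a2 high in both lines, while Lcp1, Vav1, Ngfr, Dsp and Pkp1 are higher and Cxcl12 lower in C12.

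Some epithelial genes were higher in C12. In the epithelial list 5 of 13 tested genes were called higher in C12 and 0 lower, with a median log2 fold change of 2.50. Dsp, the desmosomal linker desmoplakin, had 8.02, 7.24 and 15.8 CPM in C12 and 0, 0 and 0.147 CPM in ih_STC_BM. Pkp1, the desmosomal plakophilin 1, had 23.4, 29.7 and 23.9 CPM in C12 and 3.08, 0 and 0.440 CPM in ih_STC_BM. Neither overlapped, and both were nearly absent from at least 1 ih_STC_BM library (Dsp 272.9-fold, 95% counting interval 48.7 to 10812, adjusted p = 0.00206; Pkp1 log2 fold change 4.45, SE 0.93, adjusted p = 0.00894, edgeR). The 6-library adjusted p of Pkp1 was 0.132. Krt19, a keratin of simple epithelia, had 22.4, 49.6 and 6.19 CPM in C12 and 0.493, 0.405 and 3.23 CPM in ih_STC_BM. The Krt19 call was lost without C12 1, C12 2, ih_STC_BM 1 or ih_STC_BM 2, with an adjusted p of up to 0.104, and its 6-library adjusted p was 0.120. Epcam and Ocln were called at 0.219 to 1.02 CPM in C12, and Epcam was not called without C12 1, C12 2, C12 3, ih_STC_BM 1 or ih_STC_BM 2 (adjusted p of up to 0.128). Cdh1, the epithelial cadherin, had 2.42, 2.30 and 3.14 CPM in C12 and 0.987, 0.101 and 1.17 CPM in ih_STC_BM and was not called (adjusted p = 0.210). Cgn, the tight junction gene cingulin, is outside the list and went the other way. Its mean was 0.0261 CPM in C12 and 5.80 CPM in ih_STC_BM (log2 fold change -7.06, adjusted p = 0.000116, edgeR), and its 6-library value is not reported here.

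Of 5 tested pericyte genes, 3 were called higher in C12 and 0 lower. In the smooth muscle list 1 of 12 was higher and 0 lower (against 4.46% higher over all genes), and the list's summed level overlapped, at 1376 to 1792 CPM in C12 and 1082 to 1907 CPM in ih_STC_BM. Des, the muscle intermediate filament desmin, had 15.3, 25.98 and 12.9 CPM in C12 and 0, 1.01 and 1.03 CPM in ih_STC_BM (log2 fold change 4.70, SE 0.96, adjusted p = 0.00529, edgeR). Mylk, the myosin light chain kinase, had 48.0, 35.2 and 38.8 CPM in C12 and 11.1, 10.6 and 4.99 CPM in ih_STC_BM (log2 fold change 2.18, SE 0.33, adjusted p = 0.000478, edgeR). Neither gene overlapped between the lines, and the 6-library adjusted p was 0.0577 for Des and 0.0585 for Mylk. Cspg4, the proteoglycan NG2, and Notch3, a receptor of mural cells, were the other called pericyte genes. Cspg4 was not called without C12 2 (adjusted p = 0.0738), and Notch3 not without C12 2 or ih_STC_BM 1 (adjusted p of up to 0.0585), and their 6-library adjusted p was 0.234 and 0.189. Tagln, a smooth muscle protein, stayed under 1 CPM in all 6 libraries. In the mesothelial list, of a cell type found in peritoneal washings, 1 of 6 tested genes was higher and 1 lower. The higher was Wt1, at 1.10, 0.548 and 6.58 CPM in C12 and 0, 0.101 and 0 CPM in ih_STC_BM, and it was not called without C12 3 or ih_STC_BM 1 (adjusted p of up to 0.0740). The lower was Msln, mesothelin, at 93.9, 92.6 and 108.9 CPM in C12 and 366.1, 390.8 and 104.1 CPM in ih_STC_BM. Msln overlapped between the lines, its call was lost without any of C12 1, C12 2, C12 3, ih_STC_BM 1 or ih_STC_BM 2 (adjusted p of up to 0.140), and its 6-library adjusted p was 0.308.

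**Figure D3:**
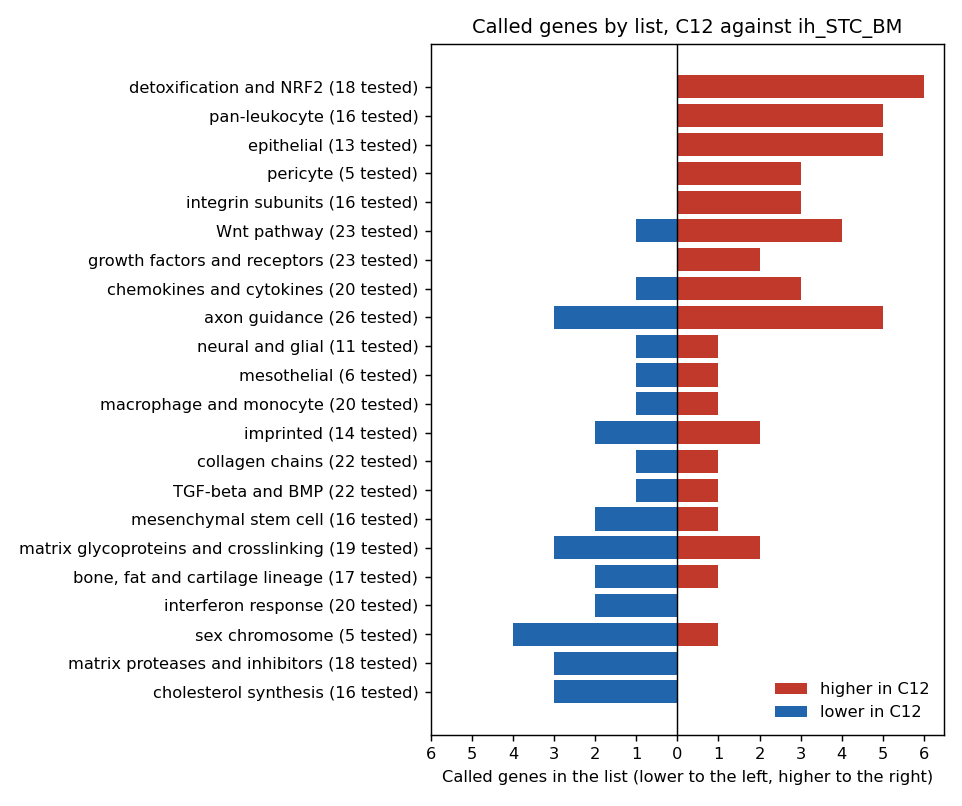
Bars give the number of genes called higher in C12 (red, to the right) and lower (blue, to the left) for each gene list with at least 2 called genes, with the number of tested genes beside the name. The detoxification list has 6 higher and 0 lower, and the matrix protease and cholesterol lists have 0 higher and 3 lower each.

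Enzymes of xenobiotic metabolism were among the largest rises. In the detoxification list 6 of 18 tested genes were called higher and 0 lower, with a median log2 fold change of 1.01. Aldh3a1, an aldehyde dehydrogenase on chromosome 11 that is inducible through the aryl hydrocarbon receptor, had 4489, 4590 and 769.0 CPM in C12 and 78.6, 4.36 and 54.4 CPM in ih_STC_BM. The lowest C12 library stood well above the highest ih_STC_BM library (log2 fold change 6.17, SE 0.97, adjusted p = 0.000708; 6-library adjusted p = 0.0516, edgeR). Cyp1a1, the cytochrome P450 that is the textbook target of the same receptor, had 31.0, 23.02 and 2.04 CPM in C12 and 0 in all ih_STC_BM libraries. Against a floor of 3 counts over the group, Cyp1a1 was at least 154-fold higher (adjusted p = 0.00138; 6-library adjusted p = 0.0525, edgeR). The third C12 library was the lowest of the line for both genes. The glutathione transferases Gsta2, Gsta3 and Gsta4 and Gclm, a subunit of the enzyme that starts glutathione synthesis, were the other calls. Their 6-library adjusted p was 0.0516, 0.1004 and 0.179 for Gsta2, Gsta3 and Gsta4 and 0.132 for Gclm, and Gclm was not called without C12 1 (adjusted p = 0.0549). Gsta4 had 288, 369 and 127 CPM in C12 and 66.1, 51.0 and 108 CPM in ih_STC_BM. Gsta2 had 23.9, 16.1 and 8.07 CPM in C12 and 0, 0 and 0.733 CPM in ih_STC_BM. None of these overlapped, but Gsta genes are close copies, so reads may have been divided among them unevenly. Nqo1, a quinone reductase of the same list, had 224.3, 182.6 and 57.9 CPM in C12 and 42.1, 16.8 and 103.1 CPM in ih_STC_BM, and it overlapped and was not called (adjusted p = 0.0831). Hmox1, haem oxygenase 1, had 433, 448 and 195 CPM in C12 and 349, 109 and 832 CPM in ih_STC_BM and was not called (adjusted p = 0.873).

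The 250 bases before the start of Cyp1a1, from RefSeq on GRCm38.p6 (chr9:57697363-57697612, plus strand), are printed because that gene had counts in C12 and none in ih_STC_BM. Capitals mark GCGTG, the core that the aryl hydrocarbon receptor is known to bind, with its first base 54 bases before the start, and TATAAA, 30 bases before it. On either strand GCGTG lies in 28.2% of 32851 such windows and TATAAA in 12.4%, and a match of letters is not evidence of binding.
Cyp1a1: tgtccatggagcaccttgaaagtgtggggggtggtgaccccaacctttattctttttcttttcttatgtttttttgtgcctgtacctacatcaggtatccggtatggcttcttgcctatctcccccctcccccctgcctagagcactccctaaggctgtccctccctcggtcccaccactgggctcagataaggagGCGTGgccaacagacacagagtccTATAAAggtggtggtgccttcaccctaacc

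Carbonyl and ester metabolising enzymes stood beside them. Cbr2, a carbonyl reductase, had 720.4, 903.6 and 511.8 CPM in C12 and 5.67, 0.608 and 7.19 CPM in ih_STC_BM, with no overlap (log2 fold change 7.33, SE 0.71, adjusted p = 7.12e-06, edgeR). Ces1f, a carboxylesterase on chromosome 8 and the largest fitted rise, had 31.9, 30.7 and 17.1 CPM in C12 and 0 in all ih_STC_BM libraries, at least 219-fold higher (adjusted p = 0.00368, edgeR). Its neighbours Ces1d and Ces1g had 7.02 to 19.8 and 15.4 to 23.8 CPM in C12 and at most 0.147 CPM in ih_STC_BM. Ces1d was at least 95.9-fold higher. Ces2g, of another carboxylesterase cluster on chromosome 8, had 33.1, 33.8 and 25.5 CPM in C12 and 0, 0 and 2.35 CPM in ih_STC_BM (log2 fold change 5.42, SE 0.88, adjusted p = 0.000899; 6-library adjusted p = 0.122, edgeR). The Ces1 genes are close copies as well, so their separate values are uncertain. Gstm4, of the mu class of glutathione transferases on chromosome 3, went the other way, with means of 0.0261 CPM in C12 and 12.3 CPM in ih_STC_BM (SD 0.0453 and 1.01, n = 3 each, adjusted p = 2.57e-06, edgeR).

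Chemokine genes that draw monocytes and eosinophils were higher in C12 than in ih_STC_BM. In the chemokine and cytokine list 3 of 20 tested genes were called higher and 1 lower, with a median log2 fold change of 0.68. The shares over all genes were 4.46% higher and 3.07% lower. Ccl2, the main monocyte attractant, had 930.6, 518.0 and 1283 CPM in C12 and 40.9, 33.3 and 68.5 CPM in ih_STC_BM. Ccl7, a related attractant of monocytes, had 771.6, 426.2 and 843.0 CPM in C12 and 44.2, 49.2 and 63.9 CPM in ih_STC_BM. Every C12 library stood several times above every ih_STC_BM library in both genes (Ccl2 log2 fold change 4.26, SE 0.59, adjusted p = 0.000260; Ccl7 3.70, SE 0.54, adjusted p = 0.000391, edgeR). The next genes on chromosome 11, Ccl11, the eosinophil attractant eotaxin, and Ccl8, lie in the same run. Ccl11 had 10.6, 6.91 and 33.7 CPM in C12 and 0.123, 0 and 0 CPM in ih_STC_BM, a 471-fold ratio with a 95% counting interval of 84.3 to 18652 (adjusted p = 0.00101, edgeR). Ccl8 had 25.5, 33.6 and 25.2 CPM in C12 and 1.85, 0.811 and 3.67 CPM in ih_STC_BM. All 4 Ccl genes passed in the 6-library fit and in each fit that left out a library. In ih_CTC, ih_DCTC and ih_BCTC, Ccl2 averaged 944, 1040 and 899 CPM and Ccl7 391, 442 and 337 CPM. Among the lines, ih_STC_BM was thus the one that stood apart for Ccl2 and Ccl7. Ccl11 averaged 0.816, 0.413 and 0.515 CPM and Ccl8 10.4, 17.1 and 4.55 CPM in those 3 lines. Cxcl1, a neutrophil attractant on chromosome 5, had 182.3, 189.5 and 267.9 CPM in C12 and 36.5, 15.9 and 79.2 CPM in ih_STC_BM. The Cxcl1 call was lost without C12 1, C12 3, ih_STC_BM 1 or ih_STC_BM 2, with an adjusted p of up to 0.0843, and its 6-library adjusted p was 0.135.

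Il1rl1, which encodes the interleukin 33 receptor ST2, was the called gene of that list that was lower. It had 12.1, 5.92 and 38.6 CPM in C12 and 927.9, 1065 and 316.3 CPM in ih_STC_BM, and the lines were far apart (log2 fold change -5.34, SE 0.69, adjusted p = 0.000122, edgeR). Csf1, the macrophage growth factor, had 753, 672 and 969 CPM in C12 and 964, 1446 and 835 CPM in ih_STC_BM and was not called (adjusted p = 0.517). In the interferon list 0 of 20 tested genes were higher and 2 lower, Rsad2 and Ifi44, both under 5 CPM in all 6 libraries. Rsad2, an antiviral enzyme, had 0.330, 0.110 and 1.10 CPM in C12 and 3.70, 3.24 and 4.84 CPM in ih_STC_BM (adjusted p = 0.0283; 6-library adjusted p = 0.177, edgeR). Rsad2 was not called without C12 1, C12 2, ih_STC_BM 1 or ih_STC_BM 3 (adjusted p of up to 0.122), nor Ifi44 without C12 1 or C12 2 (up to 0.0688). The interferon-induced transmembrane genes Ifitm1, Ifitm3 and Ifitm6 on chromosome 7, outside that list, were higher in C12, with a 6-library adjusted p of 0.211 for Ifitm3. Ifitm1 had 21.4, 18.6 and 37.6 CPM in C12 and 1.23, 1.32 and 0.587 CPM in ih_STC_BM, with no overlap (log2 fold change 4.59, SE 0.42, adjusted p = 4.44e-06, edgeR). H2-K1, a classical MHC class I heavy chain, had 33.5, 38.2 and 22.6 CPM in C12 and 75.5, 196.1 and 174.4 CPM in ih_STC_BM (log2 fold change -2.24, SE 0.37, adjusted p = 0.000962; 6-library adjusted p = 0.0632, edgeR). It was the only called gene of 12 tested in the class I list.

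Genes of the Serpina3 cluster, which holds inhibitors of serine proteases known as acute-phase genes, rose together. Serpina3g had 42.3, 37.6 and 28.5 CPM in C12 and 0.247, 0 and 0.147 CPM in ih_STC_BM, a 291-fold ratio with a 95% counting interval of 99.4 to 1415 (adjusted p = 0.000116, edgeR). Serpina3h, annotated as a transcribed pseudogene and named here as part of the run, had 109.1, 128.2 and 41.2 CPM in C12 and 1.85, 1.01 and 1.47 CPM in ih_STC_BM (log2 fold change 6.01, SE 0.67, adjusted p = 2.79e-05, edgeR). Serpina3f, Serpina3i and Serpina3m were also called higher, at 2.59 to 29.7 CPM in C12 and at most 0.617 CPM in ih_STC_BM. In each of the 5 genes the lowest C12 library was above the highest ih_STC_BM library, and the third C12 library was the lowest of its line. The 6-library adjusted p of Serpina3f was 0.0826. These genes are tandem copies on chromosome 12, so the share of reads given to each is uncertain. Serpine2, a thrombin and plasminogen activator inhibitor on chromosome 1, had 194.9, 185.6 and 143.3 CPM in C12 and 1.60, 5.98 and 5.13 CPM in ih_STC_BM (log2 fold change 5.36, SE 0.72, adjusted p = 0.000204, edgeR).

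The 250 bases before the start of 3 of these genes, from RefSeq on GRCm38.p6, plus strand, show what the copies that rose together share upstream. The windows are chr12:104214294-104214543 for Serpina3f, chr12:104235897-104236146 for Serpina3g and chr12:104262872-104263121 for Serpina3i. Capitals mark TTCNNNGAA, the letters that STAT factors are known to bind. The motif begins 121, 33 and 102 bases before the start in Serpina3f, Serpina3g and Serpina3i, and on either strand it lies in 7.02% of all 32851 windows. The matches describe letters, and the copies share sequence by descent.
Serpina3f: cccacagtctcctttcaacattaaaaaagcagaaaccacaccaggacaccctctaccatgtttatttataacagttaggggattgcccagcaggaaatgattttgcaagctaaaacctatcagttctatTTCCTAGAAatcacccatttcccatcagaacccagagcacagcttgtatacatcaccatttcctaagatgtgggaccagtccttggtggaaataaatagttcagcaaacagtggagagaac
Serpina3g: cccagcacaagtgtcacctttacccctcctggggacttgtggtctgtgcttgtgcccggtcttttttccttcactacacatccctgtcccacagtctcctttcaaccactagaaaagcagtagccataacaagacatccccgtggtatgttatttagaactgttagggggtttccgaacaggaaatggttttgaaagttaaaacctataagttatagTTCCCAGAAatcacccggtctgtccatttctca
Serpina3i: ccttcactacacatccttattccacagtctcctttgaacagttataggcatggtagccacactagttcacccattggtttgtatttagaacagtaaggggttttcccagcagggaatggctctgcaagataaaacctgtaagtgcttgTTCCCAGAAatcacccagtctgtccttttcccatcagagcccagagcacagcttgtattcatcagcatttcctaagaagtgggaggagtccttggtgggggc

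Called genes lay next to each other more widely. Counting only genes with at least 1 CPM in either line, 15 runs of at least 3 consecutive tested genes were called in the same direction, 11 higher in C12 and 4 lower. These runs were picked out after their values were seen. On chromosome 15, Jrk, Psca, Them6, Slurp1 and Lynx1 form a run of 5, of which Psca, Slurp1 and Lynx1 are Ly6 family genes. Psca had 10.8, 16.1 and 8.78 CPM in C12 and 0.123, 0.203 and 0.147 CPM in ih_STC_BM (log2 fold change 6.11, SE 0.91, adjusted p = 0.000700, edgeR). Slurp1 had 21.0, 42.3 and 15.1 CPM in C12 and 0.863, 0 and 0.587 CPM in ih_STC_BM, and it passed in edgeR (adjusted p = 0.00862) but not in DESeq2 (adjusted p = 0.0663). Lynx1 and Them6 were higher by 1.80 and 2.12 on the log2 scale, with no overlap, and did not pass in the 6-library fit (adjusted p = 0.0939 and 0.142). Jrk differed least, and its call was lost without C12 1, C12 2, ih_STC_BM 1 or ih_STC_BM 2 (adjusted p of up to 0.111), and its 6-library adjusted p was 0.402.

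**Figure D4:**
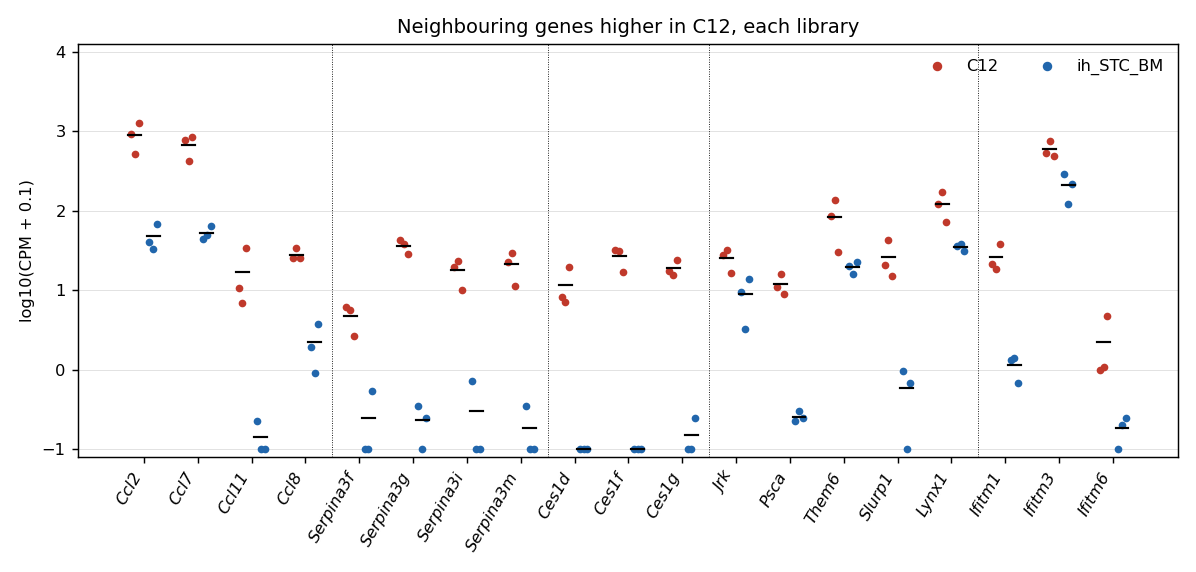
Each point is a library and each bar a group mean, as log10(CPM + 0.1), with C12 in red on the left and ih_STC_BM in blue on the right of each gene. Dotted lines separate the Ccl, Serpina3, Ces1, Ly6-containing and Ifitm gene groups, and in each gene the 3 C12 libraries lie above the 3 ih_STC_BM libraries.

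Matrix genes were called in both directions. In the collagen list 1 of 22 tested genes was higher and 1 lower (a share close to the 4.46% higher and 3.07% lower over all genes), in the matrix glycoprotein list 2 of 19 were higher and 3 lower, and in the protease list 0 of 18 were higher and 3 lower. Fbln5, an elastic fibre protein, had 4.73, 2.96 and 4.08 CPM in C12 and 141.2, 43.3 and 45.3 CPM in ih_STC_BM (log2 fold change -4.28, SE 0.61, adjusted p = 0.000321, edgeR). Fbln1, of the same family, went the other way, with 48.3, 57.0 and 30.4 CPM in C12 and 8.26, 3.55 and 14.1 CPM in ih_STC_BM (log2 fold change 2.40, SE 0.48, adjusted p = 0.00440; 6-library adjusted p = 0.102, edgeR). Neither gene overlapped between the lines. Mgp, an inhibitor of calcification, had 0.220, 0.768 and 0.314 CPM in C12 and 103.1, 8.52 and 0.587 CPM in ih_STC_BM, where the libraries spread widely and the lowest lay within the C12 range (adjusted p = 0.00445 in edgeR and 0.0791 in limma-voom). Postn, periostin, had 0, 0 and 0.314 CPM in C12 and 6.41, 59.1 and 0.147 CPM in ih_STC_BM and overlapped in the same way (adjusted p = 0.00555, edgeR). Mmp14, the membrane collagenase that activates Mmp2, had 89.6, 93.5 and 69.6 CPM in C12 and 665.9, 413.3 and 535.4 CPM in ih_STC_BM. The 2 sets of libraries were far apart for Mmp14 (log2 fold change -2.68, SE 0.35, adjusted p = 0.000148, edgeR). Mmp2 itself had 207.8, 240.4 and 188.3 CPM in C12 and 1304, 727.4 and 232.9 CPM in ih_STC_BM. Its call was lost without C12 1, C12 2, C12 3, ih_STC_BM 1 or ih_STC_BM 2 (adjusted p of up to 0.197), and its 6-library adjusted p was 0.285.

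In the integrin list 3 of 16 tested genes were called higher and 0 lower, against 4.46% higher and 3.07% lower over all genes. The median log2 fold change of the list was 0.18, and 13 genes were not called. Itga3, a laminin receptor chain, had 424.3, 496.7 and 344.8 CPM in C12 and 155.1, 198.6 and 112.9 CPM in ih_STC_BM. Itgb4, the hemidesmosome integrin chain, had 21.9, 31.0 and 25.4 CPM in C12 and 6.29, 2.43 and 1.03 CPM in ih_STC_BM. Itga1, a collagen receptor chain, had 7.14, 5.48 and 7.37 CPM in C12 and 0.493, 1.32 and 0.587 CPM in ih_STC_BM. None overlapped, and their log2 fold changes were 1.44, 2.995 and 3.01 (SE 0.28, 0.55 and 0.61; adjusted p = 0.00422, 0.00258 and 0.00516, edgeR). The 6-library adjusted p was 0.166 for Itga3, 0.0813 for Itgb4 and 0.0585 for Itga1.

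Developmental signals and regulators differed gene by gene. In the Wnt list 4 of 23 tested genes were higher and 1 lower, against 4.46% higher and 3.07% lower over all genes. Sfrp1, a secreted Wnt antagonist, had 15.497, 12.4 and 4.23 CPM in C12 and 0, 0.101 and 0.293 CPM in ih_STC_BM, an 82.2-fold ratio with a 95% counting interval of 27.9 to 400.7 (adjusted p = 7.06e-05, edgeR). Dkk2, another Wnt modulator, had 0 in all C12 libraries and 19.6, 2.43 and 0.147 CPM in ih_STC_BM, at least 76.4-fold lower in C12 (adjusted p = 0.00539, edgeR). Gas6, the ligand of the Axl and Mertk receptors, had 48.4, 60.3 and 47.3 CPM in C12 and 3.82, 6.08 and 6.16 CPM in ih_STC_BM (log2 fold change 3.28, SE 0.58, adjusted p = 0.00189, edgeR). Wisp2, a secreted protein of the CCN family, had 108.8, 94.3 and 118.2 CPM in C12 and 3.70, 0.507 and 3.08 CPM in ih_STC_BM (log2 fold change 5.48, SE 1.06, adjusted p = 0.00370, edgeR). The lines were apart in all 4 genes, and the first ih_STC_BM library supplied most of the Dkk2 counts. In the axon guidance list 5 of 26 tested genes were higher and 3 lower, against the same shares over all genes. Plxna2, a semaphorin receptor, had 46.9, 32.6 and 50.2 CPM in C12 and 10.1, 15.002 and 8.80 CPM in ih_STC_BM (log2 fold change 1.93, SE 0.41, adjusted p = 0.00751; 6-library adjusted p = 0.0682, edgeR).

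Among transcription factors, Hand1, a regulator of heart and extraembryonic mesoderm, had 12.9, 20.1 and 16.5 CPM in C12 and 0 in all ih_STC_BM libraries, at least 136-fold higher (adjusted p = 0.00165, edgeR). Nkx2-3, a homeobox factor of gut and spleen mesenchyme, had 11.5, 11.2 and 8.39 CPM in C12 and 0, 0 and 0.147 CPM in ih_STC_BM, a 251-fold ratio with a 95% counting interval of 44.8 to 9958 (adjusted p = 7.06e-05, edgeR). Hand1 and Nkx2-3 were picked out after their values were seen. Zfp503, a zinc finger repressor, had 67.4, 55.3 and 43.6 CPM in C12 and 2.84, 1.12 and 0.733 CPM in ih_STC_BM (log2 fold change 5.13, SE 0.47, adjusted p = 4.44e-06, edgeR). All 3 were well above ih_STC_BM in every C12 library. Sox2, a factor of neural and glioma stem cells, had 0, 0.110 and 0 CPM in C12 and 18.1, 1.62 and 0.880 CPM in ih_STC_BM, where the first library held most of the signal (adjusted p = 0.00211, edgeR). In the HoxA, HoxB, HoxC and HoxD lists 1 of 11, 0 of 9, 1 of 9 and 0 of 5 tested genes were higher and 0 lower. Over all genes the shares were 4.46% higher and 3.07% lower. Twist1 and Prrx1, mesenchymal regulators, overlapped between the lines at 67.2 to 71.4 and 69.0 to 198 CPM in C12 and 38.4 to 112 and 76.1 to 137 CPM in ih_STC_BM, and 0 of 12 tested genes of their list were called by edgeR, at an unadjusted p under 0.05 or by DESeq2.

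Imprinted genes included Dlk1. Of 14 tested, 2 were higher and 2 lower, against 4.46% higher and 3.07% lower over all genes. Dlk1, a Notch-related fetal growth protein that holds back fat cell differentiation, had 1.87, 5.15 and 3.53 CPM in C12 and 3440, 167.3 and 58.8 CPM in ih_STC_BM. H19, a fetal noncoding RNA, had 7.69, 9.87 and 5.72 CPM in C12 and 215.2, 227.5 and 4.55 CPM in ih_STC_BM. Dlk1 did not overlap but varied widely among ih_STC_BM libraries, and for H19 the third ih_STC_BM library lay below all C12 libraries. Dlk1 fell by 8.44 (SE 1.25, adjusted p = 0.000438; 6-library adjusted p = 0.0585) and H19 by 4.27 on the log2 scale (SE 0.88, adjusted p = 0.00582; 6-library adjusted p = 0.160, edgeR). H19 did not pass in limma-voom (adjusted p = 0.117). Peg3, a paternally expressed zinc finger gene, was higher, with 4.18, 1.75 and 5.33 CPM in C12 and 0, 0.101 and 0.147 CPM in ih_STC_BM (adjusted p = 0.000260, edgeR).

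Lipid and retinoid genes also differed. Crabp2, which carries retinoic acid to its receptors, had 1.10, 0.548 and 1.80 CPM in C12 and 206.1, 145.5 and 75.5 CPM in ih_STC_BM (log2 fold change -6.90, SE 0.58, adjusted p = 2.57e-06, edgeR). Abca1, the cholesterol exporter, had 0.660, 0.110 and 0.941 CPM in C12 and 6.41, 123.3 and 4.11 CPM in ih_STC_BM (log2 fold change -6.21, SE 1.10, adjusted p = 0.00189; 6-library adjusted p = 0.117, edgeR). Crabp2 was uniformly high in ih_STC_BM, whereas the second library carried most of the Abca1 signal, and neither gene overlapped. In the cholesterol synthesis list 0 of 16 tested genes were higher and 3 lower, with a median log2 fold change of -1.51. Insig1, the sterol sensor that holds SREBP back, had 14.6, 7.89 and 14.4 CPM in C12 and 98.4, 194.6 and 20.4 CPM in ih_STC_BM (log2 fold change -3.08, SE 0.51, adjusted p = 0.00117; 6-library adjusted p = 0.122, edgeR). Sqle and Fdft1, enzymes of squalene metabolism, were called lower as well. Both lost the call without C12 3 and without ih_STC_BM 1 or ih_STC_BM 2, Sqle also without C12 2 and Fdft1 also without C12 1, with adjusted p of up to 0.0694 and 0.121. Their 6-library adjusted p was 0.302 for Sqle and 0.363 for Fdft1. The list summed to 315.0 to 591.0 CPM in C12 and 445.5 to 1931 CPM in ih_STC_BM, where the third library was within the C12 range. Lpl, the lipase that releases fatty acids from lipoproteins, had 132.2, 55.8 and 121.0 CPM in C12 and 1.97, 19.1 and 8.36 CPM in ih_STC_BM (log2 fold change 3.38, SE 0.66, adjusted p = 0.00380; 6-library adjusted p = 0.09995, edgeR).

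Proliferation genes were not called. EdgeR called 0 of 24 cell cycle, 14 G1 regulator, 16 p53 target, 17 nuclear oxidative phosphorylation and 13 mitochondrially encoded genes tested, and 1 of 21 glycolysis and hypoxia genes. At an unadjusted p under 0.05 there were 0, 4, 1, 0 and 1 in the first 5 lists, and DESeq2 called 0, 1, 0, 0 and 0. Mki67, a marker of cycling cells, had 101.1, 36.1 and 96.0 CPM in C12 and 45.5, 61.2 and 6.45 CPM in ih_STC_BM, overlapping (log2 fold change 1.04, SE 0.77, adjusted p = 0.499, edgeR). The cell cycle list summed to 1661 to 3994 CPM in C12 and 931.3 to 4272 CPM in ih_STC_BM. In counts simulated from these libraries, the test called 7 of 67 genes changed by 2-fold, 46 of 67 by 4-fold and 65 of 66 by 16-fold. The changed genes were drawn from those with a mean above 5 CPM over both lines. Even there a change of 2-fold would mostly be missed.

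Xist and 4 Y-linked genes, the list of sex chromosome genes, were all called, 1 higher in C12 and 4 lower. Xist, the RNA of the silenced X chromosome, had 147.6, 34.5 and 692.4 CPM in C12 and 0.370, 1.42 and 0.147 CPM in ih_STC_BM (log2 fold change 8.70, SE 1.18, adjusted p = 0.000211, edgeR). Kdm5d, a histone demethylase gene of the Y chromosome, had 0 in all C12 libraries and 4.69, 14.2 and 2.49 CPM in ih_STC_BM, at least 73.6-fold lower in C12 (adjusted p = 0.00370, edgeR). The lines did not overlap in either gene. Ddx3y, Uty and Eif2s3y, also Y-linked, were called lower, with 0 CPM in C12 except for 0.0784 CPM of Eif2s3y in the third library. In ih_STC_BM they had 2.96, 35.7 and 2.93 CPM (Ddx3y), 0.863, 13.1 and 0.147 CPM (Uty) and 6.66, 50.2 and 1.61 CPM (Eif2s3y). The second ih_STC_BM library was the highest for all 4 Y genes. Ddx3y and Uty lost the call without any of the C12 libraries, Uty also without ih_STC_BM 2, and Eif2s3y without C12 1 or C12 2, with adjusted p of up to 0.0876, 0.122 and 0.0588. In DESeq2, Eif2s3y and Uty did not pass (adjusted p = 0.342 and 0.210) and Ddx3y was given no adjusted p, so 2 of the 5 genes of the list were called there. In the 6-library fit Ddx3y did not pass (adjusted p = 0.0858, edgeR).

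Genes lower in C12 were unevenly placed in the genome. On chromosome 3, 75 of 764 tested genes were called lower (9.82%) and 10 higher (1.31%). On chromosome 4, 68 of 944 were lower (7.20%) and 17 higher (1.80%). Chromosomes 14 and 18 had 7.68% and 8.67% lower, against 3.07% over all genes. In the other direction, chromosome 11 had 91 of 1273 tested genes higher (7.15%) and chromosome 9 had 62 of 910 (6.81%), against 4.46% over all genes. Of the 170 genes called lower whichever library was left out, 84 (49.4%) lay on chromosomes 3 and 4, which hold 10.8% of the tested genes.

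Genes nearly absent from C12 but not from ih_STC_BM were concentrated there too. A mean under 0.3 CPM in C12 with at least 5 CPM in ih_STC_BM and a call was found for 37 genes (0.234% of those tested), 15 on chromosome 3 and 9 on chromosome 4. The reverse pattern was found for 50 genes (0.317%), 0 on chromosome 3, 1 on chromosome 4 and 6 on chromosome 11. Gyg, glycogenin, which primes glycogen synthesis, lies on chromosome 3 and was one of the 37 genes under 0.3 CPM in C12. It was also the first of the 15 falls chosen by size among genes of at least 20 CPM. It had 0, 0 and 0.0784 CPM in C12 and 34.7, 40.0 and 29.8 CPM in ih_STC_BM, a ratio of 1098 with a 95% counting interval of 197 to 43424 (adjusted p = 1.75e-07, edgeR). Igsf3, an immunoglobulin superfamily gene on the same chromosome, had 0 in all C12 libraries and 17.6, 13.6 and 10.3 CPM in ih_STC_BM, at least 143-fold lower in C12 (adjusted p = 6.16e-07). Pbxip1 had 0.220, 0 and 0.627 CPM in C12 and 31.7, 36.8 and 36.7 CPM in ih_STC_BM (log2 fold change -6.76, SE 0.55, adjusted p = 2.04e-06, edgeR). In all 3 genes the ih_STC_BM libraries were close to each other and far above C12. On chromosome 4, Gpr153, an orphan receptor gene, had 0, 0.219 and 0.235 CPM in C12 and 57.2, 36.0 and 20.1 CPM in ih_STC_BM (log2 fold change -7.78, SE 0.67, adjusted p = 2.57e-06, edgeR). Echdc2, Gpx7 and Rab3b, which lie within 1 Mb of each other on chromosome 4, were each under 0.4 CPM in every C12 library and at 1.93 to 11.96 CPM in ih_STC_BM. This low level was not particular to C12, as all 3 averaged 0 CPM in ih_CTC and 0.0723 to 0.789 CPM in MDSC. In ih_DCTC and ih_BCTC they averaged 3.14 to 16.8 CPM. Igsf3, Echdc2, Gpx7 and Rab3b were picked out after their values were seen.

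**Figure D5:**
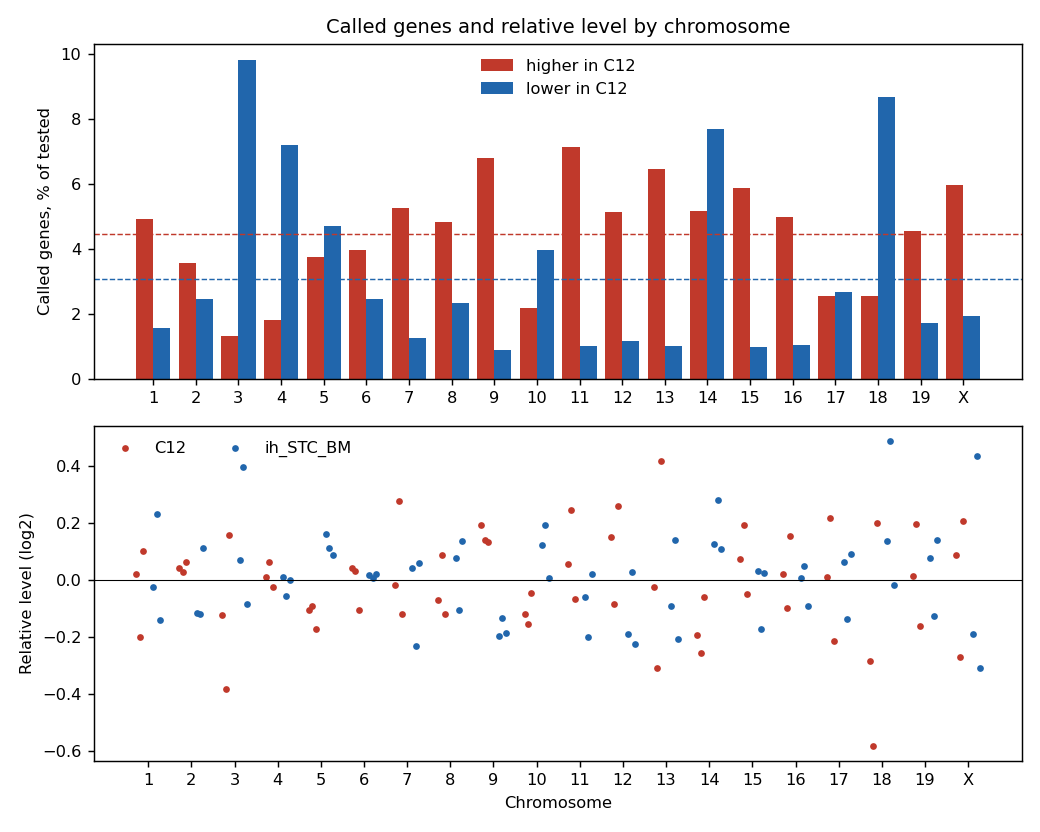
The upper panel gives the percentage of tested genes on each chromosome called higher (red) and lower (blue) in C12, with dashed lines at 4.46% and 3.07%, the shares over all genes. The lower panel gives each library's median log2(CPM + 1) of the chromosome's genes relative to the mean of the 6 libraries and to the library's median, with C12 in red on the left and ih_STC_BM in blue on the right, and the lines are apart for chromosomes 5, 9, 10 and 14.

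Whole-chromosome levels mostly overlapped. The level of a chromosome in a library was the median, over its genes, of log2(CPM + 1) less the 6-library mean and less the library's median over all 10354 genes used, which had at least 5 CPM on average. It separated the lines for 4 of 20 chromosomes. Chromosome 9 was higher in C12 (0.194, 0.142 and 0.134 in C12 and -0.197, -0.133 and -0.186 in ih_STC_BM, log2). Chromosomes 5, 10 and 14 were lower, and chromosome 14 had -0.193, -0.255 and -0.0591 in C12 and 0.126, 0.281 and 0.108 in ih_STC_BM. Chromosome 3 overlapped, with -0.122, -0.383 and 0.159 in C12 and 0.0709, 0.395 and -0.0847 in ih_STC_BM. The third C12 library, with the highest intron share of its line, was the highest for chromosome 3, and the second ih_STC_BM library likewise, and the part of intron share in these levels was not tested. DNA copy number was not measured in these libraries.

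Ribosomal protein genes were lower as a group in count. Of 75 tested, 0 were higher and 13 lower, with a median log2 fold change of -0.70. Rps2 had 36.3, 57.7 and 33.0 CPM in C12 and 1684, 531.4 and 3265 CPM in ih_STC_BM (log2 fold change -5.43, SE 0.51, adjusted p = 5.00e-06, edgeR). Rps18 had 43.4, 75.1 and 48.2 CPM in C12 and 924.6, 611.1 and 1469 CPM in ih_STC_BM, and Rpl34 had 42.0, 67.7 and 27.4 CPM in C12 and 513.2, 429.2 and 1622 CPM in ih_STC_BM. These 3 genes were far apart between the lines, whereas the summed share of all 75 overlapped, at 8.44%, 13.1% and 6.47% of CPM in C12 and 13.1%, 10.2% and 21.8% in ih_STC_BM. In the ih_CTC, ih_DCTC, ih_BCTC, MDSC and MSC groups of the series, Rps2 averaged 18.4 to 47.8 CPM and Rps18 22.7 to 139.4 CPM. For Rps2 and Rps18, C12 was thus near those groups and ih_STC_BM was the group that stood apart. Rpl34 averaged 28.9 CPM in ih_CTC but 283.5 to 524.8 CPM in ih_DCTC, ih_BCTC, MDSC and MSC. Ribosomal protein genes have many processed copies in the genome, so how reads were divided among them can change a single gene's value, and their part in these differences was not tested. Tpm3-rs7, a retrotransposed copy of a tropomyosin gene that was also among the largest falls, carries the same doubt.

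Other genes were among the 15 rises and 15 falls chosen by size. Among rises, Fam19a5 (a secreted chemokine-like protein) and Kif26b (a kinesin family member) had 11.8 to 35.5 and 16.008 to 26.7 CPM in C12 and 0 to 0.617 and 0.123 to 0.811 CPM in ih_STC_BM. Among falls, Plac8, a small cysteine-rich protein, had 4.29, 3.07 and 2.59 CPM in C12 and 90.6, 107.0 and 56.8 CPM in ih_STC_BM, and Tpd52 and Itih2, a hyaluronan-binding serum protein chain, were 0.220 to 1.18 CPM in C12 and 11.4 to 38.5 CPM in ih_STC_BM. None of these 5 overlapped. Of the 30 genes chosen by size, Ptx3, a soluble pattern recognition protein, and Fam198b lost the call when a library was left out. Ptx3 had 0.440, 0.768 and 0.705 CPM in C12 and 7.03, 25.9 and 28.6 CPM in ih_STC_BM and was not called without C12 1 or C12 2 (adjusted p of up to 0.0716). Fam198b had 3.63, 1.32 and 2.35 CPM in C12 and 22.2, 134.2 and 7.63 CPM in ih_STC_BM and was not called without ih_STC_BM 2 (adjusted p = 0.0510), and its 6-library adjusted p was 0.108. Of the 30, 23 passed in the 6-library fit, 28 in DESeq2, 29 in limma-voom and 30 with intron share as a covariate.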

How the data were processed

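RNA was extracted with TRIzol and libraries made with a TruSeq kit, per the labels' protocols. The deposited table gives expected counts per gene, of which 7.49% of the values in the 6 libraries were not whole. Tools listed without roles in the submitters' processing notes are STAR, RSEM 1.2.26 and DESeq2. The reference build was not given in the sources used here. A deposited table of the authors' alignment quality gave the percent of reads in introns.

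Expected counts were rounded, scaled with TMM in edgeR 4.0.16 (R 4.3.3), and filtered by filterByExpr (minimum count 10, total 15). A robust quasi-likelihood model, with 1 mean for each group and all 20 libraries, was used (13 residual degrees of freedom), tested two-sided, with Benjamini-Hochberg adjustment over all tested genes at 0.05. Counts simulated from the libraries' means and fitted spread were used to check the fit, and 2 of 15279 unchanged genes were called. Each gene was drawn independently with the spread that edgeR had fitted. The simulation therefore cannot show how shifts shared by many genes affect the calls. DESeq2 1.42.0, limma-voom (limma 3.58.1) and other settings were alternatives. Libraries are numbered in order of deposit, which has no other meaning. No 2 libraries of a line agreed within sampling noise (chi-square per gene 66.5 to 282.3).

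The 46 gene lists, with 699 genes, and the comparison itself were chosen with earlier results of these data known. Genes were named as the 15 largest rises and 15 largest falls among called genes with at least 20 CPM in the higher line and no overlap, leaving out predicted genes, pseudogenes, immunoglobulin genes and those without a symbol. Of these, 1 is not reported here. From each list up to 4 called genes with at least 5 CPM could be named, with a panel of 17 genes. Other genes named were chosen after their values were seen. Folds against 0 counts use a floor of 3 counts over the group, which is 0.0968 CPM in C12 and 0.121 CPM in ih_STC_BM, and ratios with 1 to 3 counts have a 95% interval. Floors and intervals cover counting error only. A chromosome level also had the library's median subtracted. The group names in the deposited design table matched the labels for 20 of 20 libraries.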

Additional observations from a re-analysis of the deposited data

How the results depend on the processing

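No paired analysis was possible because the labels give no replicate numbers. The 1188 calls (704 higher in C12, 484 lower) came to 207 (137 and 70) in the fit of the 6 libraries alone, 494 (336 and 158) with glmTreat against a log2 fold change of 1, 2789 (1500 and 1289) with intron share as a covariate, and 661 (384 and 277) without the 4 libraries of intron share under 3%, which leaves 1 library per line, assumed to vary like the other groups. DESeq2 called 742 genes lower. With no filter on low counts, 309 genes were lower. Leaving out a library gave 675 to 1364 calls, 475 to 820 higher and 200 to 605 lower. The cause of these shifts was not tested, apart from the fewer samples or the stricter test in those fits.

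Some genes that were not called turned their direction. Without the 4 libraries of low intron share, the log2 fold change was 0.80 for Trp53, -0.19 for Col1a1, 1.21 for Myc, -0.49 for Ly6a and -0.81 for Col1a2. The called gene Rac2 had -0.13 there. With 1 library left out, the log2 fold change ranged over -0.65 to 0.36 for Trp53, -0.34 to 0.81 for Col1a1, -0.93 to 0.36 for Myc, -0.28 to 0.89 for Pdgfrb, -0.63 to 0.0011 for Pdgfra, -0.22 to 0.41 for Col1a2 and -0.11 to 1.75 for Nt5e. Of the 163 named genes followed, 72 kept their result in the fit of the 6 libraries and 70 fell short of the threshold. The others had no value in that fit, as they did not pass its filter on low counts. In DESeq2, 3 of the 163 fell short. Profile distance was 1.69 within C12, 2.32 within ih_STC_BM and 2.82 between the lines over the 2000 most variable genes, and 1.69 between the lines with a prior count of 0.5. Depth limits small changes in genes of low count.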
